A study of Mus musculus with 4 samples.

Results

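The genes of fibroblast growth factor (FGF) signalling are described here: the FGF ligands, their receptors, proteins that bind either, and the genes that FGF signalling itself switches on to restrain or carry its signal. Members were taken by gene symbol alone, as the probe sets with a single annotated symbol that names an Fgf, Fgfr, Spry or Spred gene (with 2 Fgf genes left out by the rule and not analysed here) or is Fgfrl1, Fgfbp1, Fgfbp3, Dusp6, Etv4, Etv5, Flrt3 or Il17rd. This rule gave 42 probe sets for 39 genes, out of 21789 single-symbol probe sets for 19938 genes. It uses no measured value, but the rule and the gene lists used below were chosen with earlier results of these data known. Etv5, Il17rd and Spred2 have 2 probe sets each. Mouse ES cells (D3 line, a single line) and embryoid bodies (EBs), aggregates in which ES cells start to differentiate, were profiled with 1 Affymetrix array per condition. The 4 arrays are undifferentiated ES cells at day 0 and day 7 EBs, grown for 2 days in hanging drops and then for 5 in suspension, which received no ligand (untreated), retinoic acid (RA) or bexarotene. RA, the ligand of the RAR nuclear receptors, was given at 5 µM in the sample labels and at 10 nM in the methods, and bexarotene, a synthetic agonist of the partner receptor RXR, at 50 nM. The ligand doses therefore differ by either account. No condition has a replicate, so every value has no SD, every difference is one between 2 arrays, and no p-value is given.

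FGF ligands are secreted proteins that bind receptor tyrosine kinases on the cell surface together with heparan sulfate. The activated receptor signals through RAS and the kinases RAF, MEK and ERK, and ERK switches on the ETS factors Etv4 and Etv5 as well as inhibitors of the same pathway, among them the Sprouty and Spred proteins, Il17rd (Sef) and the ERK phosphatase Dusp6. In the early mouse embryo the pathway moves naive pluripotent cells towards the primed epiblast and later acts at the midbrain-hindbrain boundary, in the tail bud and in many organs, and along the elongating body axis FGF and RA signals oppose each other.

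Values are log2 signal as deposited, and a difference is given on that log2 scale or as a fold. The array medians lay between 6.66 and 6.69 and the lower quartiles between 5.19 and 5.22. The threshold is the 1.5-fold of the study's methods, 0.585 on the log2 scale. To scale small differences, a robust SD was taken over probe sets of similar signal from bexarotene minus RA, and it was 0.0886 to 0.140 at the signals of the members. That comparison has the fewest probe sets past 1.5-fold, so it bounds no spread between cultures. The labels of the ES and untreated EB arrays were checked against marker genes. Compared with ES cells, 10 of 11 naive pluripotency markers were lower in untreated EBs by over 1.5-fold. There, 8 of 9 visceral endoderm and 7 of 7 definitive and anterior endoderm markers were higher by as much. This check tells ES cells from EBs and does not tell the EB arrays from each other. In whole EBs, fewer cells of a type and less RNA per cell cannot be told apart.

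The FGF genes separated ES cells from EBs more than they separated the EB arrays, as did all probe sets together. Between untreated EBs and ES cells, 12 of the 42 members (28.6%) were past 1.5-fold higher, where 11.2% of all single-symbol probe sets were, and 7 (16.7%) were past it lower, where 8.5% were. With RA, 4 members (9.52%) were past 1.5-fold higher than in untreated EBs against 2.13% of all, and 3 (7.14%) lower against 2.36%. With bexarotene, 3 members were past it higher (7.14%) against 1.55% of all, and 3 lower against 2.27%. Between bexarotene and RA no member was past 1.5-fold higher, where 0.193% of all probe sets were, and 1 of 42 was lower, where 0.28% were. The RA and bexarotene counts share the untreated array. Of the members, 35 of the 42 probe sets were past 1.5-fold between no pair of EB arrays compared, and 21, for 19 genes, were past it in no comparison at all. The shares of all probe sets placed so were not counted, so these counts do not show that the members were flat. The median range over the 3 EB arrays, highest minus lowest, was 0.28 for the members and 0.17 for all probe sets. The median difference of the 42 members stayed near that of all probe sets, at -0.03 for untreated EBs against ES cells (all probe sets -0.04), 0.0015 with RA (-0.0013) and -0.0093 with bexarotene (-0.0088).

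**Figure D1:**
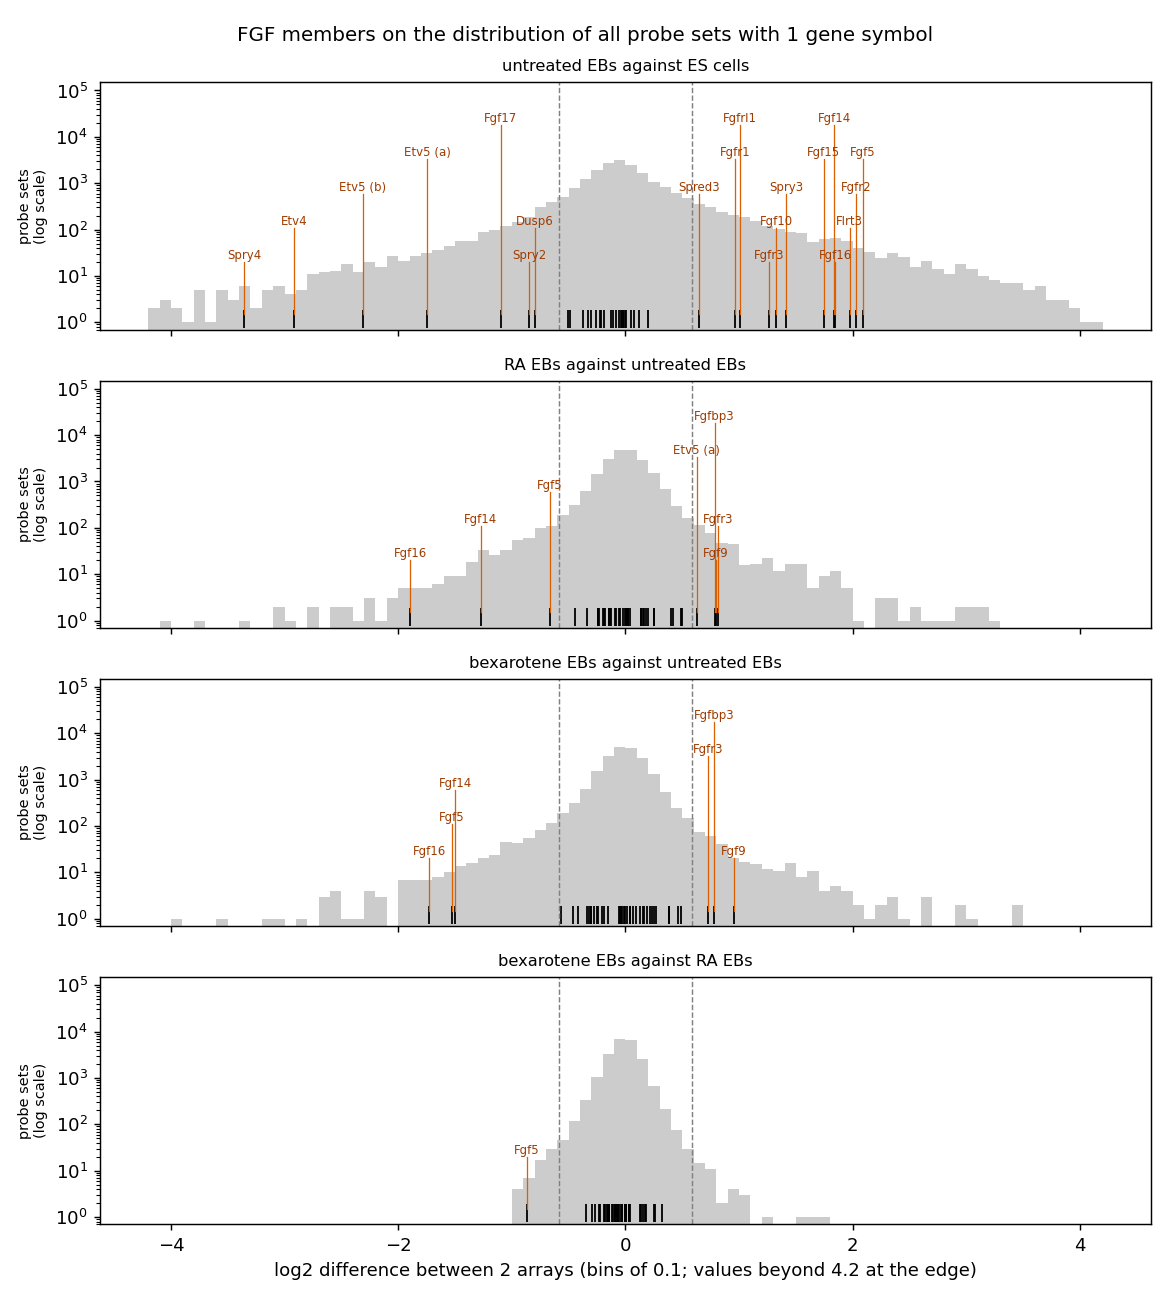
Log2 differences of the FGF members on the distribution of all 21789 single-symbol probe sets, for 4 comparisons. Grey bars count probe sets on a log axis, black ticks are the 42 members, orange lines name those past 1.5-fold and dashed lines mark 1.5-fold; (a) and (b) are the probe sets 10363901 and 10438626 of Etv5. Spry4 lies far to the left at -3.36 in the top panel, and in the lowest panel Fgf5 stands alone at -0.87.

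The members past 1.5-fold with both ligands were the same 6. Fgf9, Fgfr3 and Fgfbp3 were higher and Fgf5, Fgf14 and Fgf16 lower, and 0 members were past it in opposite directions. Both differences use the same untreated array, and the share of all probe sets past 1.5-fold with both ligands was not counted. The article reports that RA regulated most bexarotene-responsive genes in a similar way, so such sharing is not particular to the FGF members. No promoter window of Fgf16 was available. The promoters of the other 5 genes are shown because their transcripts were past 1.5-fold with both ligands, in one direction or the other. Each is a RefSeq window of 300 bases on build GRCm38.p6 that spans an annotated start and lies mostly upstream of it, read 5′ to 3′ along the gene's strand. The windows are chr14:58072436-58072735 (plus strand) for Fgf9, chr5:33721474-33721773 (plus) for Fgfr3, chr19:36919550-36919849 (minus) for Fgfbp3, chr5:98253934-98254233 (plus) for Fgf5 and chr14:124192497-124192796 (minus) for Fgf14. Capitals mark every match on either strand to the nuclear receptor half-site AGGTCA, to the ETS core CCGGAA, to the GC box GGGCGG or to the TATA box TATAAA.
Fgf9: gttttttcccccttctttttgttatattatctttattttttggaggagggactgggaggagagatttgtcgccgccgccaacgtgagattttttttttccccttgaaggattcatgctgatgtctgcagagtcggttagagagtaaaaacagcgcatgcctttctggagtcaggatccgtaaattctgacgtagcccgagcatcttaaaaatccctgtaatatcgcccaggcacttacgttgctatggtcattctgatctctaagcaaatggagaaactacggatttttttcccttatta
Fgfr3: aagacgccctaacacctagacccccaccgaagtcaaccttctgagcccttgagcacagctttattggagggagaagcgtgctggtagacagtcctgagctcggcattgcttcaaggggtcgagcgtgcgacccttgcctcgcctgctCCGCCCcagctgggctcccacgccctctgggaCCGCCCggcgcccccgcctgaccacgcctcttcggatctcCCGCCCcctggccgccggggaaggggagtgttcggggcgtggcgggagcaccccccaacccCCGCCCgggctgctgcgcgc
Fgfbp3: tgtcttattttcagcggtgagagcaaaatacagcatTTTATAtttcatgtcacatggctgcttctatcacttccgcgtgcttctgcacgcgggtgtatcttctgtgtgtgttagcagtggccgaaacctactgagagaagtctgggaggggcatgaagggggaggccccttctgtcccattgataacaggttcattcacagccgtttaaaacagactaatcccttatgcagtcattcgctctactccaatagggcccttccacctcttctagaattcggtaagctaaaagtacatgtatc
Fgf5: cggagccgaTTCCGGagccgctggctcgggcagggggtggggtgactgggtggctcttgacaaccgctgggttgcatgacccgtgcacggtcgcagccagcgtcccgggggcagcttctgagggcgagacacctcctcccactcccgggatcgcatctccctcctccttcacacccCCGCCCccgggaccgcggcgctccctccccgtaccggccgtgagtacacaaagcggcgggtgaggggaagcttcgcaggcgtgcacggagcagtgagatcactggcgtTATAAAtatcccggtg
Fgf14: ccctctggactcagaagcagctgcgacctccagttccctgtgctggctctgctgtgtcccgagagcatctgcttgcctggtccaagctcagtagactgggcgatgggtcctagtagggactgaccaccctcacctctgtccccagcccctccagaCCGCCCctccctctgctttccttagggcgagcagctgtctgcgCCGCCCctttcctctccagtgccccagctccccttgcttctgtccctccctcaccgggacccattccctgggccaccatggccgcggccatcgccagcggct

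The 5 windows do not share a motif among those searched. The Fgf9 window holds none of the 4 motifs and has 42.7% G and C. The Fgfr3 window holds 4 GC box matches at 69.7% G and C, and a second Fgfr3 start has 2 overlapping matches. Fgf14 holds the GC box 2 times, and Fgfbp3 holds a single TATA box match. Fgf5 holds 1 match each to the ETS core, the GC box and the TATA box letters, the last of them downstream of the annotated start. None of the windows shown holds AGGTCA, which occurs in 16.3% of all 32851 promoters of this length. Among members, 30 genes have 38 such promoters, of which 4 hold the half-site (Fgf6, Fgf7, Fgf12 and Spry2), 5 hold the ETS core against 14.9% of all promoters, 5 hold the TATA box against 13.6% and 23 hold the GC box against 35.7%. Paired retinoid receptor half-sites of the DR1, DR2 and DR5 kind were found in 0 of the 38, and in 0.222%, 0.268% and 0.0974% of all promoters. Member promoters were rich in G and C as a whole, with a median of 60.3% against 52.7% for all. A match is a description of letters, and its absence says only that they are not in this window.

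**Figure D2:**
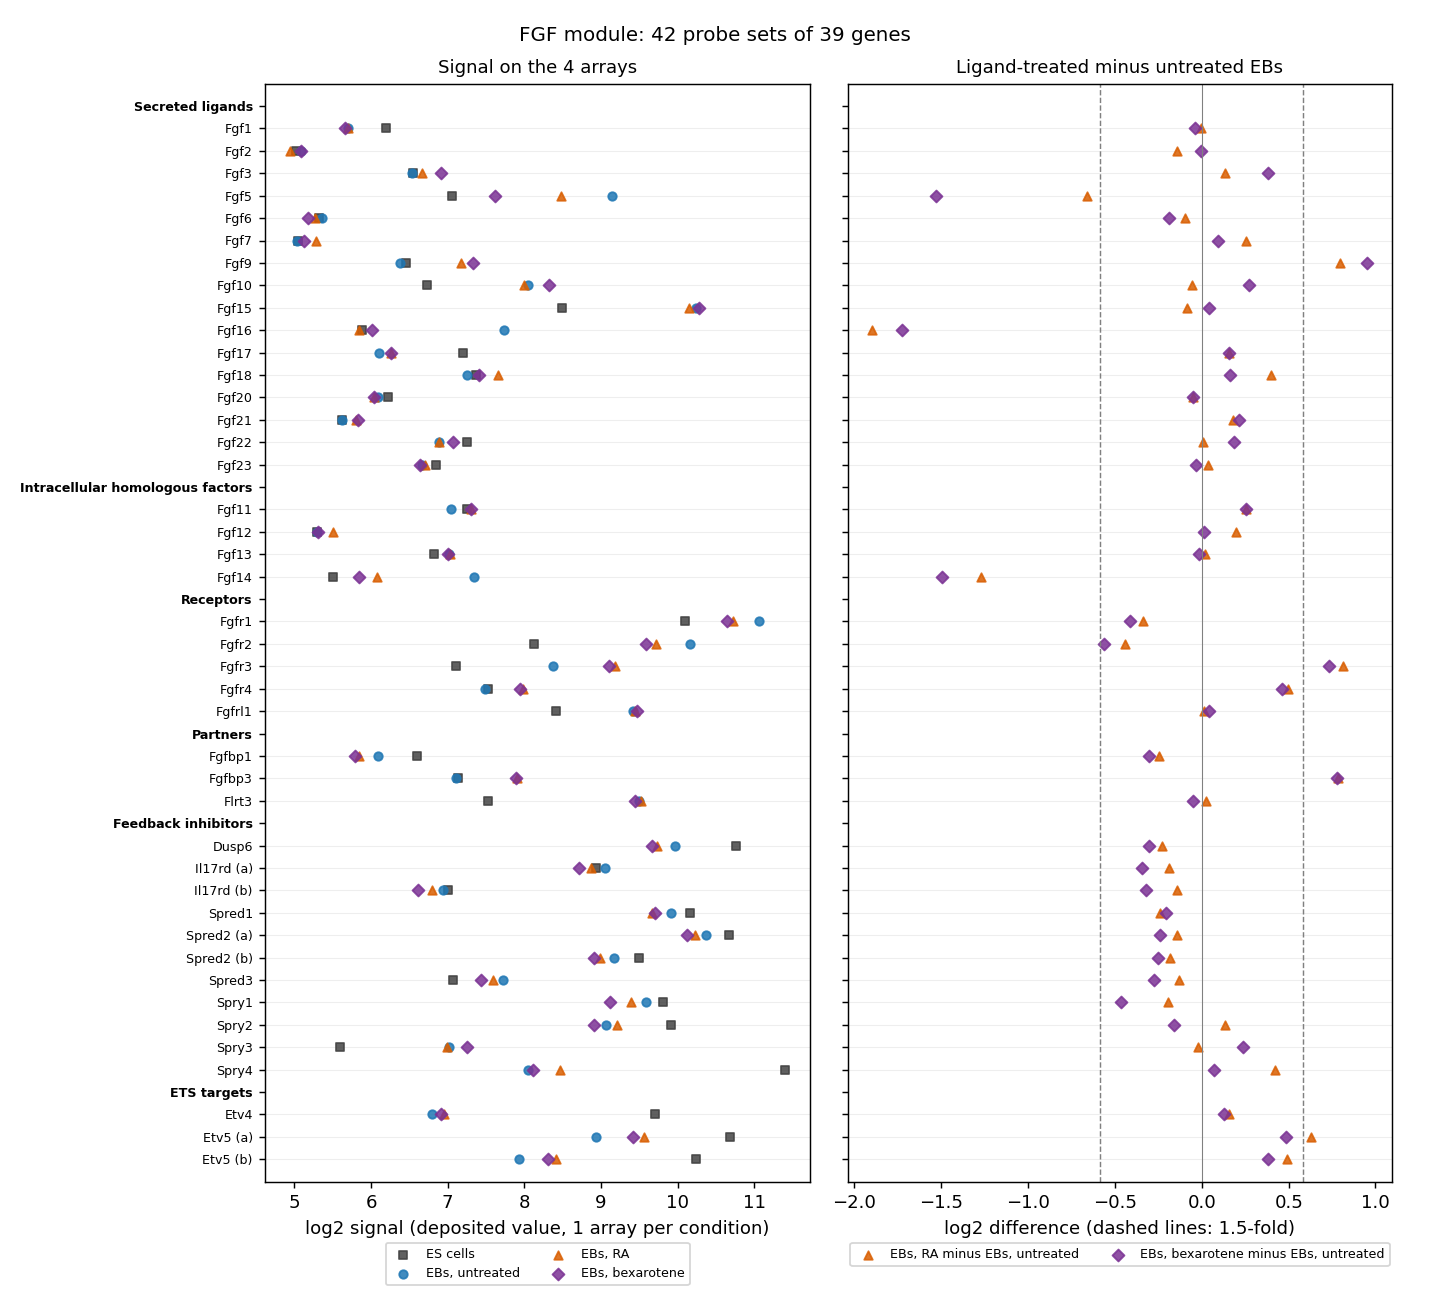
Left, log2 signal of each FGF probe set on the 4 arrays (1 point per array); right, the log2 difference of the RA and bexarotene arrays from the untreated EB array, with dashed lines at 1.5-fold. For Il17rd, Spred2 and Etv5, (a) and (b) are the 2 probe sets in order of their numbers. The grey squares of Spry4, Etv4 and Etv5 stand far to the right of their EB points, and Fgf5, Fgf14 and Fgf16 lie beyond the left dashed line with both ligands.

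Among the secreted ligands, Fgf5, which marks the primed epiblast, had a log2 signal of 7.06 in ES cells and, in EBs, of 9.15 untreated, 8.48 with RA and 7.62 with bexarotene. All 3 EB arrays were above ES cells, and the untreated array was the highest. Untreated EBs were 4.25-fold above ES cells, RA was 1.58-fold below untreated EBs and bexarotene 2.89-fold below. This gene also gave the 1 member difference past 1.5-fold between the ligands, with bexarotene 1.82-fold below RA, the fifth lowest of all 21789 probe sets in that comparison. Of 6 primed epiblast markers, 2 with RA and 3 with bexarotene were lower by over 1.5-fold than without ligand. Otx2 had differences of -1.35 with RA and -1.99 with bexarotene, and Lef1 of -0.95 and -1.20. Sox3 lay above untreated EBs with both ligands, at 0.42 and 0.41. Summed on the linear scale, the signal of these markers was 5716 on the untreated array, against 3564 in ES cells, 3601 with RA and 2682 with bexarotene. Otx2 was the brightest of the 6 on the untreated array, at 11.64, and weighs most in that sum. The median log2 signal was 9.07 in ES cells and, in EBs, 9.03 untreated, 8.97 with RA and 8.81 with bexarotene. By the median, ES cells were thus not below untreated EBs, unlike for Fgf5. The order of the 3 EB arrays is that of Fgf5, and the part of these cells in the Fgf5 values was not tested.

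Fgf16 and Fgf9, secreted ligands of the same subfamily, lay on opposite sides. Fgf16 had a signal of 5.89 in ES cells and, in EBs, 7.73 untreated, 5.84 with RA and 6.01 with bexarotene. The untreated EB array alone was high, and both treated arrays stood near ES cells, at differences of -0.05 and 0.12. RA was 3.72-fold and bexarotene 3.31-fold below untreated EBs, the 27th and the 39th lowest differences of all probe sets. Fgf9 had a signal of 6.46 in ES cells and, in EBs, 6.38 untreated, 7.18 with RA and 7.33 with bexarotene, so the treated arrays were both above the other two. It was 1.74-fold higher with RA and 1.94-fold higher with bexarotene. Fgf20, the third ligand of this subfamily, stayed between 6.04 and 6.22 on the 4 arrays. Relative to Fgf16, Fgf9 was 6.47-fold higher with RA and 6.40-fold higher with bexarotene than without ligand.

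Markers of other cell types stood apart on the same arrays as these ligands. Of 7 definitive and anterior endoderm markers, 5 were past 1.5-fold lower with each ligand, and on the linear scale they summed to 2075 in ES cells and, among EBs, to 6062 untreated, 2478 with RA and 2123 with bexarotene. Of 11 cardiac and mesoderm markers, 6 were past it lower with RA, and 4 lower and 2 higher with bexarotene, with sums of 2036, 2931, 1715 and 2497 in the same order. Of 10 neural progenitor and neuron markers, 8 were past it higher with each ligand, with sums of 4540, 3764, 10572 and 8523. Stmn2, the brightest of them in ES cells at 11.68, weighs most in the ES sum. The median log2 signal of the neural list was 6.89 in ES cells and, in EBs, 7.58 untreated, 9.52 with RA and 9.19 with bexarotene. By the median, ES cells were thus below untreated EBs. By these sums, the endoderm list and the cardiac and mesoderm list were both highest on the untreated array, as Fgf16 was. The neural list was highest on the treated arrays, as Fgf9 was. So were the visceral endoderm markers, which summed to 2644 in ES cells and, among EBs, to 7411 untreated, 9214 with RA and 8136 with bexarotene. Of these 9 markers, 0 were past 1.5-fold with either ligand. The part of these lists in the values of Fgf16 or Fgf9 was not tested.

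Other ligands were past 1.5-fold between ES cells and untreated EBs but not between EB arrays. Fgf15, an endocrine FGF that is also made in the embryonic brain, had a signal of 8.49 in ES cells and, in EBs, 10.24 untreated, 10.15 with RA and 10.28 with bexarotene, 3.36-fold higher in untreated EBs than in ES cells. Fgf10, the ligand that drives budding of limb and lung, stood at 6.72, 8.05, 7.996 and 8.32 on the same arrays in that order, 2.51-fold higher in untreated EBs. Fgf17, a ligand of the midbrain-hindbrain boundary, went the other way, at 7.20, 6.10, 6.26 and 6.26, and was 2.14-fold below ES cells in untreated EBs. For all 3, the single ES array lay outside the range of the EB arrays, 0.13 wide for Fgf15, 0.32 for Fgf10 and 0.16 for Fgf17. They were named for being past 1.5-fold between untreated EBs and ES cells, and the share of all probe sets placed so was not counted. Among the ligands past 1.5-fold in no comparison, Fgf18 and Fgf3 differed most with RA or bexarotene. Fgf18, a ligand of bone and lung, had a difference of 0.40 with RA and 0.16 with bexarotene. Fgf3, which takes part in inner ear induction, had 0.13 and 0.38. Fgf2, which is often added to cultures of primed pluripotent cells, was below the lower quartile on all 4 arrays, at 4.95 to 5.09, where a small difference could not be seen. Fgf1, Fgf6, Fgf7, Fgf21, Fgf22 and Fgf23 were also past 1.5-fold in no comparison.

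Fgf11 to Fgf14 encode FGF homologous factors, which stay inside the cell and bind voltage-gated sodium channels. Fgf14 had a signal of 5.51 in ES cells and, in EBs, 7.34 untreated, 6.07 with RA and 5.85 with bexarotene. The untreated EB array was again the highest, 3.57-fold above ES cells, and RA was 2.41-fold and bexarotene 2.82-fold below it. Fgf11, Fgf12 and Fgf13 were past 1.5-fold in no comparison, and their largest range over the 4 arrays was 0.26. Fgf14 was thus lower on the arrays where neural markers, listed above, were higher, and their part was not tested.

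The receptors did not differ in one direction. Fgfr1, the receptor of ES cells and mesoderm, had a signal of 10.10 in ES cells and, in EBs, 11.06 untreated, 10.72 with RA and 10.65 with bexarotene. Fgfr2, the main receptor of many epithelia, stood at 8.13, 10.16, 9.71 and 9.59, and Fgfr3, a receptor of neural progenitors and cartilage, at 7.11, 8.37, 9.19 and 9.10. All 3 were past 1.5-fold higher in untreated EBs than in ES cells, by 1.95-fold, 4.07-fold and 2.40-fold, and the ES array was the lowest for each. Among EBs they parted: Fgfr3 was 1.76-fold higher with RA and 1.66-fold higher with bexarotene, while Fgfr1 and Fgfr2 were below untreated EBs. Fgfr2 had a difference of -0.44 with RA and -0.57 with bexarotene, just inside the threshold at 1.48-fold, and Fgfr1 of -0.34 and -0.41. Fgfr4, a receptor of endoderm and muscle progenitors, was near 7.5 in both ES cells (7.52) and untreated EBs (7.48) and stood at 7.98 with RA and 7.95 with bexarotene, 1.41-fold and 1.38-fold above untreated EBs. Fgfrl1, a receptor without the kinase domain, was 8.42 in ES cells and 9.42 to 9.47 in EBs, 2.01-fold higher in untreated EBs with a range of 0.042 among EB arrays.

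Relative to Fgfr2, Fgfr3 was 2.39-fold higher with RA and 2.45-fold higher with bexarotene than without ligand, and relative to Fgfr1 it was 2.22-fold and 2.21-fold higher. Fgfr4 relative to Fgfr2 was 1.92-fold and 2.04-fold higher. These are unequal differences within arrays, and the signs of all 4 receptor differences were the same after quantile normalization and after loess. Against ES cells, Fgfr2 was the receptor gene with the largest difference in untreated EBs, and with either ligand it was Fgfr3, at 2.08 with RA and 1.99 with bexarotene. The neural marker list given above was higher on the same arrays as Fgfr3, and its part was not tested.

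**Figure D3:**
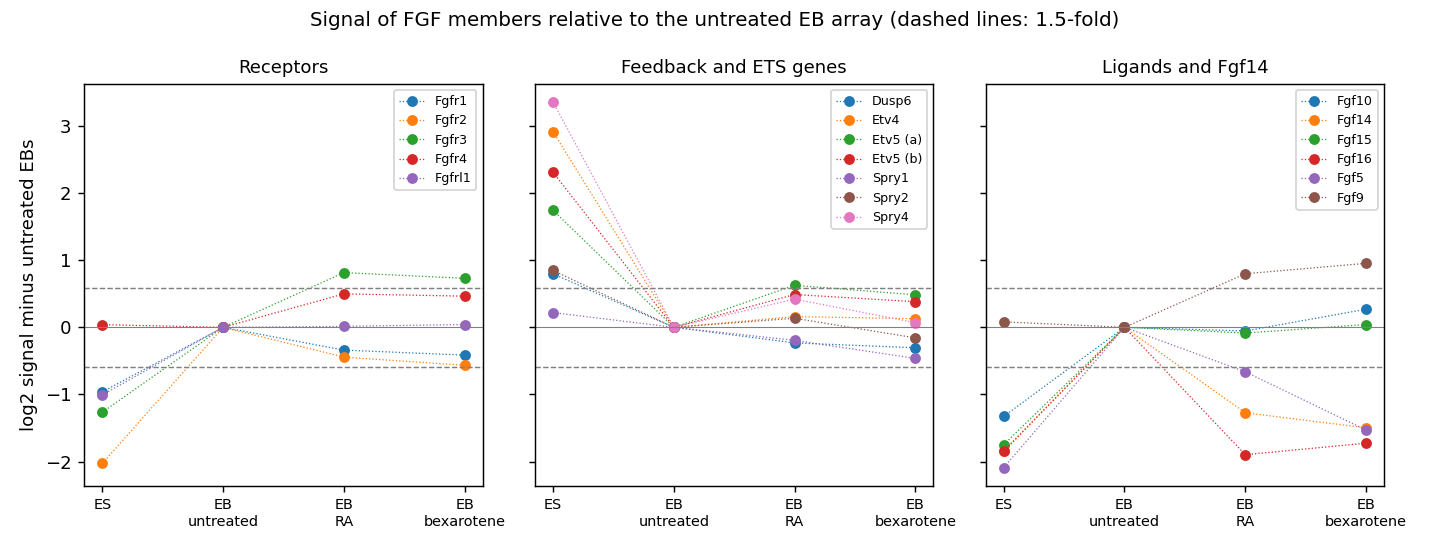
Log2 signal of selected FGF members minus their value on the untreated EB array, for ES cells and for the untreated, RA and bexarotene EB arrays; dashed lines mark 1.5-fold and dotted lines only join the points of 1 probe set. Receptors part with the ligands (Fgfr3 at 0.81 and 0.73, Fgfr2 at -0.44 and -0.57), feedback and ETS genes stand high in ES cells (Spry4 at 3.36), and Fgf5, Fgf14 and Fgf16 are highest on the untreated EB array.

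Among the proteins that bind FGFs or their receptors, Fgfbp3, a secreted carrier that releases FGFs from the matrix, had a signal of 7.14 in ES cells and, in EBs, 7.11 untreated, 7.90 with RA and 7.89 with bexarotene. It was 1.72-fold higher with each ligand, and both treated arrays were above the other two. The related carrier Fgfbp1 stood at 6.60, 6.09, 5.85 and 5.79 and was past 1.5-fold in no comparison, with differences of -0.25 with RA and -0.31 with bexarotene. Flrt3, a membrane protein that promotes FGF signalling and takes part in axon guidance and visceral endoderm integrity, was 7.53 in ES cells and, in EBs, 9.50 untreated, 9.53 with RA and 9.45 with bexarotene. Its ES array stood apart by 3.93-fold, and its EB arrays differed by at most 0.080.

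The members with the largest differences in favour of ES cells were genes that report FGF signalling. Spry4 had a log2 signal of 11.40 in ES cells and, in EBs, 8.05 untreated, 8.47 with RA and 8.12 with bexarotene, and in untreated EBs was 10.2-fold below ES cells, the 24th lowest of all probe sets. Etv4 stood at 9.70, 6.79, 6.95 and 6.92, 7.54-fold lower in untreated EBs and the 44th lowest. For both genes all EB arrays lay far below the ES array, with a range among EBs of 0.42 for Spry4 and 0.16 for Etv4. The Etv5 probe set 10438626 stood at 10.24, 7.93, 8.42 and 8.31, and the probe set 10363901 at 10.68, 8.94, 9.56 and 9.42, so untreated EBs were 4.96-fold and 3.35-fold lower. Probe set 10363901 is numbered among those of chromosome 10, whereas Etv5 lies on chromosome 16, so what it reads is uncertain. Dusp6 stood at 10.76, 9.97, 9.74 and 9.66, 1.74-fold lower, and Spry2 at 9.92, 9.07, 9.21 and 8.91, 1.80-fold lower. Spry1, Spred1, Spred2 and Il17rd were not past 1.5-fold, with differences between -0.33 and 0.12. Against this direction, Spry3 was 2.66-fold and Spred3 1.57-fold higher in untreated EBs than in ES cells. Spry3 stood at 5.60, 7.01, 6.99 and 7.25, and Spred3 at 7.07, 7.72, 7.59 and 7.44. The Spry3 probe set, too, is not numbered among those of its gene's chromosome. Hence the family members did not follow one direction, and Spry4 was 8.80-fold lower in untreated EBs relative to Spry1.

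With the ligands, 0 of 11 feedback probe sets, for 9 genes, were past 1.5-fold in either direction. Of all single-symbol probe sets, 2.13% were past it higher and 2.36% lower with RA, and 1.55% and 2.27% with bexarotene. With 11 probe sets, a count of 0 does not set the feedback genes apart from these shares. Il17rd and Spred2 enter the counts below with 2 probe sets each, and both comparisons share the untreated array. With RA, 9 of the 11 were below untreated EBs, with a median of -0.14, where 50.3% of all probe sets were below. With bexarotene, 9 of 11 were below, with a median of -0.25, where 52.1% of all were. Spry1 had the most negative value with bexarotene, at 9.80 in ES cells and, in EBs, 9.58 untreated, 9.39 with RA and 9.12 with bexarotene, which is 1.38-fold below untreated EBs. Dusp6 differed by -0.23 with RA and -0.30 with bexarotene, and the 2 probe sets of Il17rd by -0.14 and -0.19 with RA and -0.32 and -0.34 with bexarotene. All 3 probe sets of Etv4 and Etv5 lay above untreated EBs with both ligands. The Etv5 probe set 10363901 was past the threshold with RA (1.54-fold) and not with bexarotene (1.40-fold), and 10438626 was past it with neither (1.40-fold and 1.30-fold). Etv4 was 1.12-fold and 1.09-fold above untreated EBs, close in log2 size to the robust SD of 0.140 at its signal. Spry4 was 1.34-fold above untreated EBs with RA and 1.05-fold with bexarotene. Most feedback probe sets and all ETS probe sets thus lay on different sides of the untreated array, by sizes under 1.5-fold but for that 1 probe set.

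Naive pluripotency markers stood, like Etv5 and Spry4, higher with RA. Of 11 such markers, 6 were past 1.5-fold higher with RA than in untreated EBs and 0 with bexarotene, with medians of 0.63 and 0.35. On the linear scale they summed to 25817 in ES cells and, among EBs, to 5903 untreated, 8904 with RA and 7677 with bexarotene. The part of these markers' cells in the Etv5 and Spry4 values was not tested.

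Between bexarotene and RA directly, Fgf5 was the 1 member past 1.5-fold, and the other 41 probe sets had differences between -0.35 and 0.32. Spry4 was the next most negative, at -0.35, followed by Spry2 (-0.29) and Spry1 (-0.27). Fgf10 had the highest value, at 0.32, and Spry3 stood at 0.26 and Fgf3 at 0.25. The 5 receptor genes lay between -0.12 and 0.03, where the robust SD at the members' signals was 0.0886 to 0.140. The differences named here for Spry, Fgf10 and Fgf3 genes exceeded that robust SD. Of the 42 members, 28 were below 0 and 13 above, where 53.8% of all probe sets were below. All members but Fgf5 thus lay within 1.5-fold between these 2 arrays, which does not show that the ligands act alike.

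Some members lie close together in the genome, and in 2 of 4 such pairs one gene differed between untreated EBs and ES cells far more than the other. By the gene order of GRCm38.p6, Fgf6 and Fgf23 are next to each other on chromosome 6, Fgf3 and Fgf15 lie on chromosome 7 with 1 protein-coding gene between, and Fgf2 and Spry1 on chromosome 3 and Spry4 and Fgf1 on chromosome 18 with 2 between. Fgf15 was 3.41-fold higher in untreated EBs than in ES cells relative to Fgf3. Spry4 was 7.29-fold lower in untreated EBs relative to Fgf1. Fgf2 and Spry1 were both past 1.5-fold in no comparison. The adjacent Fgf6 and Fgf23 pair was likewise past 1.5-fold in no comparison, and Fgf6 and Fgf2 were dim, with signals up to 5.37 and 5.09.

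The further genes of the pathway were counted from lists, each gene by its brightest probe set. Of 28 coreceptor and heparan sulfate genes measured, 12 were past 1.5-fold higher and 2 lower from ES cells to untreated EBs, where 11% and 8.52% of all 19938 genes were. With RA, 2 were higher and 1 lower, where 2.07% and 2.22% of all genes were, and with bexarotene 1 was higher and 0 lower, where 1.48% and 2.15% were. Klb, the coreceptor for endocrine FGFs, stood at 7.53 in ES cells and, in EBs, 8.16 untreated, 8.83 with RA and 8.44 with bexarotene, 1.59-fold higher with RA. Sdc2, a heparan sulfate proteoglycan of the membrane, stood at 6.46, 8.34, 7.67 and 7.83, 1.59-fold lower with RA. Ndst4, a heparan sulfate sulfotransferase, was 2.34-fold higher with RA and 1.51-fold higher with bexarotene, at signals below the lower quartile of each array (3.54 to 4.77). Of 17 genes of RAS and MAPK signal transduction, 0 were past 1.5-fold with either ligand, with medians of -0.08 with RA and -0.04 with bexarotene, and 2 were higher and 1 lower from ES cells to untreated EBs.

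Of 16 other genes known to respond to ERK, 1 was past 1.5-fold higher and 2 lower with RA, and 1 higher and 3 lower with bexarotene. Fos, an immediate early gene, stood at 7.05 in ES cells and, in EBs, 8.27 untreated, 7.66 with RA and 7.21 with bexarotene, a difference of -1.06 with bexarotene. The ERK phosphatase gene Dusp4 had differences of -0.55 with RA and -0.86 with bexarotene, the immediate early gene Egr1 of -0.33 and -0.81, and Myc, a growth regulator, of -0.87 and -0.49. The 1 gene past the threshold higher, named after its values were seen, was Ccnd1 (cyclin D1), at 0.77 and 0.61. Of 10 listed genes of the caudal growth zone, where FGF and RA oppose each other in the embryo, 9 were measured. Among these 9, Cdx2 was past 1.5-fold lower with RA, at -0.64 (1.55-fold). It lay at the threshold with bexarotene, at -0.58 (1.4993-fold), so 0 of the 9 were past it there. The gene not measured is T (brachyury), which was not among the single-symbol probe sets. The article reports T as more than 2-fold lower with either ligand than in untreated EBs.

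Genes of the regions that use FGF signals in the head were counted beside the ligands. Of 8 midbrain-hindbrain boundary genes, 3 were past 1.5-fold higher and 3 lower with RA, and 2 higher and 2 lower with bexarotene. The transcription factor gene En1 had differences of -1.20 with RA and -1.85 with bexarotene, Pax5 of -0.67 and -0.90, and the ligand gene Wnt1 of -0.91 and -0.51, whereas En2 had 0.99 and 0.38. Gbx2 (0.60 and 0.76) and Pax8 (0.67 and 0.83), named after their values were seen, were the other two past the threshold higher. Of 8 anterior forebrain genes, 5 were past 1.5-fold lower with RA and 8 with bexarotene, with medians of -1.24 and -1.98, and 0 were higher. Their largest differences were those of Hesx1 (-3.01 and -3.56), Six3 (-2.24 and -2.54), Fezf2 (-1.67 and -2.28) and Otx2, all transcription factor genes. Otx2 belongs to this list and to the primed epiblast markers. Of FGF ligands measured here that act at the midbrain-hindbrain boundary, Fgf15 and Fgf17 differed from untreated EBs by at most 0.16 with either ligand, and Fgf18 by 0.40 with RA and 0.16 with bexarotene.

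**Figure D4:**
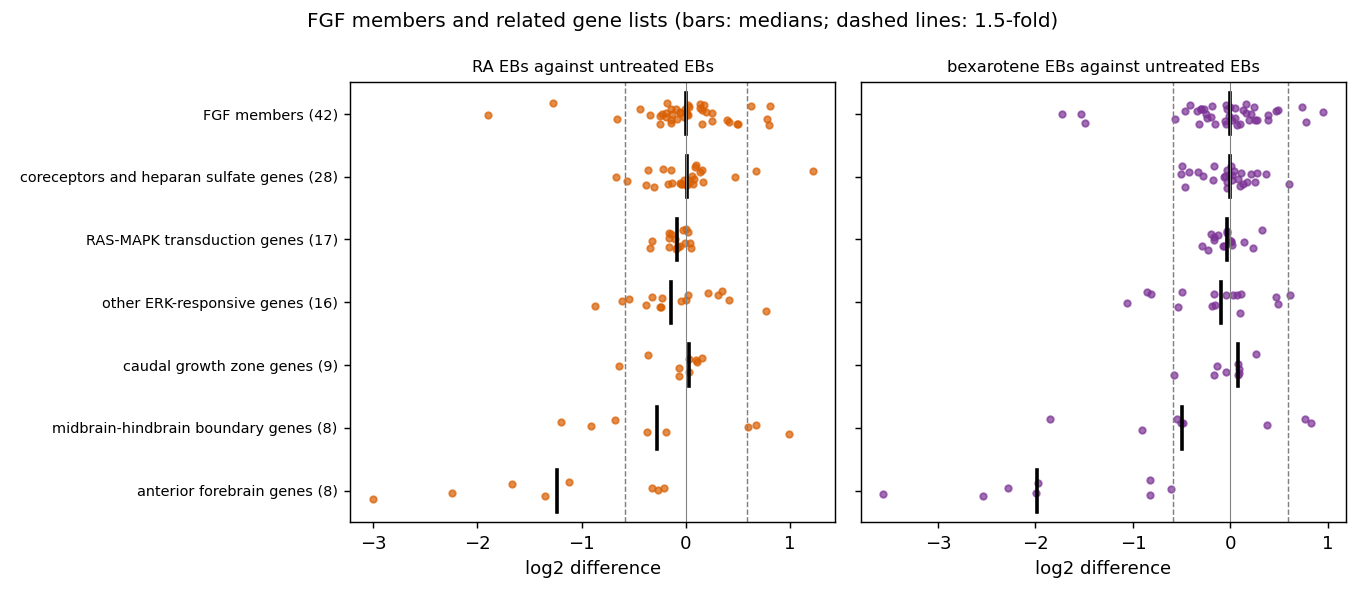
Log2 difference of the RA array (left) and the bexarotene array (right) from the untreated EB array for the FGF members (probe sets) and for 6 lists of related genes (1 point per gene, number in parentheses); black bars are medians and dashed lines mark 1.5-fold. FGF members centre on 0 with 6 probe sets past 1.5-fold on both panels, and the anterior forebrain genes lie to the left, with medians of -1.24 and -1.98.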

How the data were processed

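RNA of 4 mouse samples was measured, 1 Affymetrix array each, and no array is a replicate. The deposited table holds log2 signal for 35556 probe sets, made by the authors in Affymetrix Expression Console, where the article names RMA and the submitters' notes GCRMA, and RMA-type summaries compress differences of dim probe sets. Values were used as deposited. By the platform annotation, 21789 probe sets name 1 gene, 1621 name several and 12146 are unnamed here. Members and lists were chosen with earlier results of these data known. Named with all 4 values are members past 1.5-fold in a comparison, receptors, Spry genes, Dusp6, Etv4 and Etv5, with at most 2 other examples a group, and from each list up to 4 genes past 1.5-fold with RA or bexarotene by size of difference. Genes were placed by the GRCm38.p6 table, and the array's build is not given in the sources used here. Differences between arrays were counted past 1.5-fold, with no test. Alternatives were 2-fold, quantile normalization, loess (span 0.3), a floor at the 25th percentile, leaving out probe sets below the median of both arrays and, chosen after seeing the data, leaving out 1 Etv5 probe set. The counting code was run on simulated data with probe sets set well past the threshold, which tests the code and says nothing about false calls between cultures. The number of arrays limits the precision. Python 3.11.15, pandas 2.3.3 and statsmodels 0.14.6 were used.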

Additional observations from a re-analysis of the deposited data

How the results depend on the processing

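At a threshold of 2-fold, 0 members were higher with RA, 0 higher with bexarotene and 0 lower with bexarotene than with RA, since Fgf9, Fgfr3, Fgfbp3, Etv5 and, between the ligands, Fgf5 all lie between 1.5-fold and 2-fold. At 2-fold, the 6 related lists, 86 genes in all, had 1 higher and 6 lower with RA (6 and 12 at 1.5-fold), and 0 higher and 7 lower with bexarotene (4 and 13). All other counts of members, and of these pooled lists, stayed within 1.5 times the reported ones under every alternative run. Each list on its own, markers included, was recounted as an alternative chosen after seeing the data. At 2-fold, 23 of 72 such counts moved by over 1.5 times. Naive pluripotency markers higher with RA went from 6 to 0, cardiac and mesoderm markers lower with bexarotene from 4 to 2, primed epiblast markers lower with RA from 2 to 1, and anterior forebrain genes lower with bexarotene from 8 to 5. Under the normalizations, the floor and the filter on dim probe sets, 10 of 288 moved, each by 1 gene. Among them, 1 naive pluripotency marker was past 1.5-fold higher with bexarotene after quantile normalization. Quantile normalization took Spred3 below 1.5-fold, at 0.57 in untreated EBs against ES cells, and altered no other member's side of the threshold, and loess altered none. These scalings moved the median of all probe sets by at most 0.0322, and the signs they turned belonged to members with differences under 0.054. No paired analysis was possible because each condition has 1 array. Leaving out Etv5 probe set 10363901 gives 3 members higher with RA in place of 4. Fgf2 and Ndst4 are too dim for small differences to be seen, and the spread between cultures is unknown.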

Other observations

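The 2 probe sets annotated to Etv5 carry numbers from different parts of the array's numbering, which mostly runs along the chromosomes. All 20 named probe sets nearest in number to 10363901, 10 on each side, belong to genes of chromosome 10, whereas 19 of the 20 nearest to 10438626 belong to genes of chromosome 16, where GRCm38.p6 places Etv5. The Spry3 probe set is also out of place by this measure, with at most 6 of its 20 neighbours on any chromosome and the gene itself on X. Probe set 10363901 was the brighter on every array and showed the smaller difference between untreated EBs and ES cells, -1.74 against -2.31. It also gave the higher reading with RA, 0.63 against 0.49. Which transcripts each probe set reads was not tested, so the Etv5 count with RA rests on a probe set whose target is uncertain.

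The 3 members past 1.5-fold lower with both ligands, Fgf5, Fgf14 and Fgf16, do not stand alike against ES cells once a ligand is present. Fgf16 had log2 differences from ES cells of -0.05 with RA and 0.12 with bexarotene. Fgf14 stood at 0.57 and 0.34, and Fgf5 at 1.43 and 0.56, so RA left Fgf5 the farthest from its ES level.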
